A study of Mus musculus with 8 samples.

Results

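The 7 genes that encode NMDA receptor subunits, Grin1, Grin2a, Grin2b, Grin2c, Grin2d, Grin3a and Grin3b, were followed in RNA-seq of hippocampal CA1 tissue from wild-type mice and Brpf1 conditional knockout (cKO) mice. Members were taken by gene symbol, and each of the 7 symbols matched 1 of the 34094 genes in the table. Brpf1 is an intellectual disability gene whose protein is a scaffold of histone acetyltransferase complexes, and the study concerns spatial and contextual learning after its loss in the hippocampus. The WT group holds 4 libraries from wild-type C57BL/6 mice. The cKO group holds 4 libraries of the same strain, tissue and age (2 months), with the genotype given as Brpf1 knockdown. The sources used here do not give what removes Brpf1, in which cells, which exons are lost, or the sex of the animals. One protocol speaks of 3 pairs of mice, so which libraries are separate animals is uncertain, and p-values reflect library-to-library spread that may be technical in part.

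The NMDA receptor is a glutamate-gated cation channel built from several subunits. As background, the obligatory GluN1 subunits (from Grin1) bind glycine or D-serine and are joined by GluN2 subunits, which bind glutamate, or by GluN3 subunits, which bind glycine. GluN1/GluN2 receptors pass calcium when glutamate and glycine or D-serine are bound and depolarization has expelled magnesium from the pore. Their calcium signal starts long-term potentiation at the synapses of CA1. GluN2B prevails early in life and GluN2A joins it as the forebrain matures, while GluN2D is known from interneurons and GluN2C from cerebellar granule cells and, in forebrain, from astrocytes and thalamus.

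Reads on genes ran from 42346644 to 49897832 in WT libraries and from 40330226 to 46559795 in cKO libraries. More genes had at least 1 read in every WT library (26634 to 27549) than in any cKO library (25476 to 26587, two-sided exact permutation p = 0.0286, the smallest p that 4 against 4 allows). Brpf1 had 1358, 1451, 1473 and 1380 normalized reads in WT libraries and 848, 1032, 897 and 1004 in cKO libraries, so the groups did not overlap, at 66.8% of the WT mean. In limma over all 26135 genes tested its unadjusted p was 5.07e-05 and its adjusted p 0.132, and in the authors' deposited table its FDR was 1.47e-07. The CA1 pyramidal markers were present in every library (summed normalized reads of 7 genes, 14499 to 22365 in WT and 16270 to 22151 in cKO). Dentate granule markers reached similar sums (17014 to 23606 over 8 libraries), as did CA3 and CA2 markers (16239 to 20648), so markers of other hippocampal fields were present beside those of CA1. The labels give the tissue as hippocampus CA1 in one field and as hippocampus in the title, and each Grin level is a mean over all the cells present.

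Levels were compared between subunit genes as normalized reads, which are reads divided by the authors' size factor of the library, per kb of exon. Grin1 stood first, with 1306 ± 150 normalized reads per kb of exon (SD over 8 libraries). Grin2a with 962 ± 92.0 and Grin2b with 954 ± 192 followed, and these neighbours could not be ordered, since Grin2a was the higher in 4 of 8 libraries. Grin2c had 375 ± 36.2, Grin3a 139 ± 24.3 and Grin2d 89.6 ± 11.0 normalized reads per kb of exon. Grin3b, which is known from motor neurons, came last with 2.32 ± 0.958. Neighbours other than Grin2a and Grin2b, and Grin3a and Grin2d, had ranges that did not overlap, and Grin3a exceeded Grin2d in 8 of 8 libraries.

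**Figure D1:**
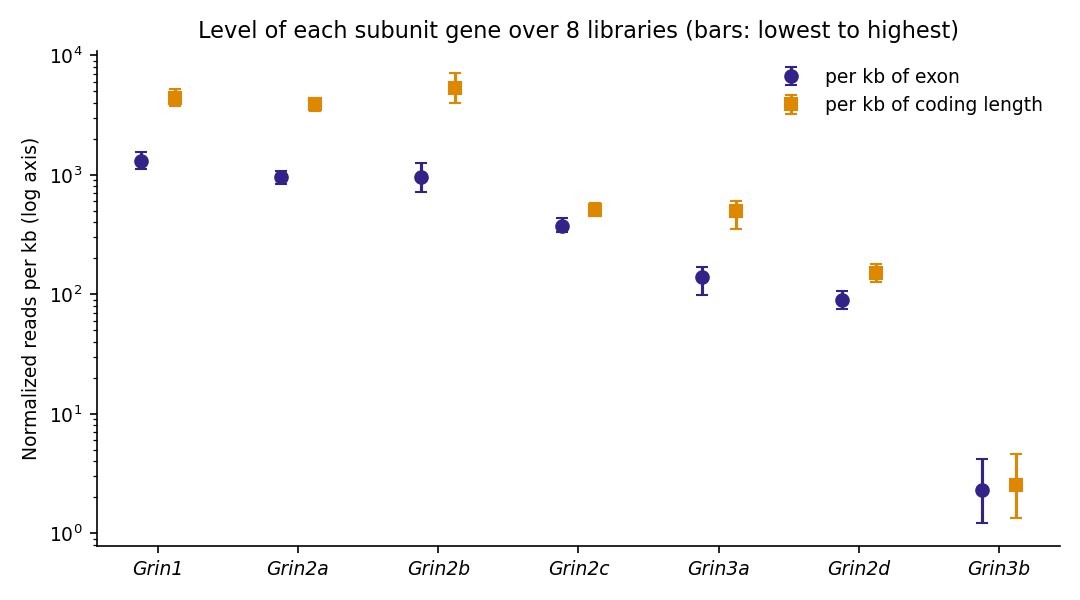
Normalized reads per kb (log axis) of each subunit gene, over exon length or coding length. Points are means over 8 libraries and bars run from the lowest to the highest library. Grin1, Grin2a and Grin2b stand highest on both scales and Grin3b lowest.

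The order within the top 3 depended on the length used. The annotated exons of Grin2b span 24.8 kb and those of Grin2a 17.9 kb, against 9.70 kb for Grin1, much of it untranslated. Per kb of coding length Grin2b came first with 5330 ± 1071 normalized reads, before Grin1 with 4402 ± 507 and Grin2a with 3927 ± 376 (SD over 8 libraries). On that scale the ranges of these 3 genes overlapped, and so did those of Grin2c (508 ± 49.1) and Grin3a (501 ± 87.7).

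The sequence before the start of these genes was read for CpG content, a feature not used to choose them. RefSeq's promoter table (GRCm38.p6) holds 4 of the 7 genes, Grin1, Grin2c, Grin2d and Grin3b. In the 250 bases before the start, Grin1 has 27 CpG dinucleotides, and 8.56% of all 32851 promoter entries of that length have at least as many. Grin2c has 15, Grin2d 9 and Grin3b 2, against a median of 6 over all entries, of which 29.0% have no more than Grin3b. The 250 bases before the start of the 4 genes' highest and lowest by level, Grin1 and Grin3b, are shown here to set the CpG counts beside the letters, 5′ to 3′ on the gene's strand with CpG in capitals, for Grin1 from chr2:25319188-25319437 (minus strand) and for Grin3b from chr10:79970474-79970723 (plus strand). These are descriptions of 4 genes, and nothing in these data measured the promoters.
Grin1: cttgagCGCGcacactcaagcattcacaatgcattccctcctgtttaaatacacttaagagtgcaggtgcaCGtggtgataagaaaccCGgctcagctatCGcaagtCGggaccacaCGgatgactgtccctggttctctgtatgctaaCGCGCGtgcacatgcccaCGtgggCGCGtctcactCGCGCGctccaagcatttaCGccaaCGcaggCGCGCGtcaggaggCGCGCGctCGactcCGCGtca
Grin3b: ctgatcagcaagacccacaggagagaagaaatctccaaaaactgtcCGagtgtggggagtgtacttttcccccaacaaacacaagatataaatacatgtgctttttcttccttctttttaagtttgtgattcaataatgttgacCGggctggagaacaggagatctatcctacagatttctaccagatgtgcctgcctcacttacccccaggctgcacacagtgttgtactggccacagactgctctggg

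Grin1 (ENSMUSG00000026959), the subunit present in every NMDA receptor, had 10799, 11330, 13936 and 11487 normalized reads in WT libraries and 12414, 13264, 12948 and 15139 in cKO libraries. WT replicate 3 lay above 3 of the 4 cKO libraries, so the groups overlapped, although the other WT libraries lay below every cKO library. The log2 fold change of cKO against WT was 0.18 (SE 0.094, limma adjusted p = 0.608 over all genes), or a fold of 1.13 with a 95% interval from 0.980 to 1.31. Grin1 therefore did not pass the test. Without WT replicate 3 the log2 fold change was 0.26, with an unadjusted p of 0.00951 and an adjusted p of 0.374 in limma, and over the 15 alternatives the adjusted p ran from 0.374 to 0.809. In bulk tissue, fewer cells of a type and less RNA per cell cannot be told apart, for Grin1 or any gene below.

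An antisense gene, Grin1os, overlaps Grin1 on the opposite strand in the annotation. It had 694, 529, 514 and 556 normalized reads in WT libraries and 529, 636, 457 and 379 in cKO libraries. Its groups overlapped (log2 fold change −0.21 with SE 0.17, and adjusted p = 0.725 in limma). The library kit was stranded, but the sources used here do not say whether the counting used strand, so the split of reads between these 2 genes is uncertain. In every library Grin1os had far fewer reads than Grin1.

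**Figure D2:**
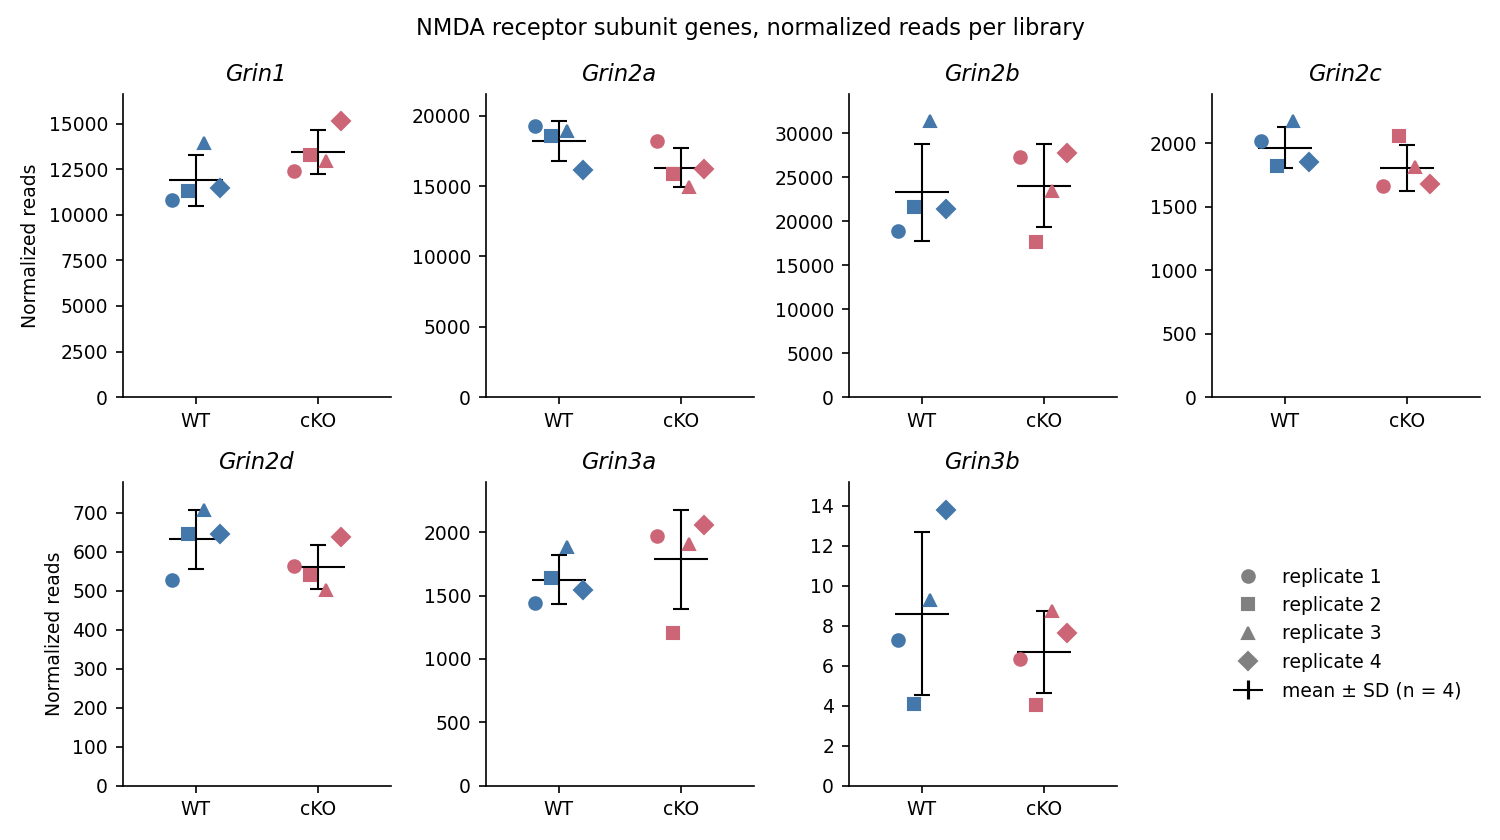
Normalized reads of the 7 subunit genes in each of the 8 libraries, with the mean ± SD of each group (n = 4), on linear axes from 0. WT and cKO libraries overlap for each of the 7 genes, and the cKO replicate 2 library is lowest for Grin2b and Grin3a.

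Of the GluN2 genes, Grin2a (ENSMUSG00000059003), whose protein prevails in mature forebrain receptors, had 19238, 18526, 18912 and 16134 normalized reads in WT libraries and 18205, 15846, 14910 and 16197 in cKO libraries. WT replicate 4 lay among the cKO values, and the other WT libraries were above every cKO library. The log2 fold change was −0.16 (SE 0.083, limma adjusted p = 0.603), a fold of 0.895 with a 95% interval from 0.788 to 1.02. With quantile normalization it was −0.23, with an unadjusted p of 0.0153 and an adjusted p of 0.591 in limma, and over the 15 alternatives the adjusted p ran from 0.380 to 0.825.

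Grin2b (ENSMUSG00000030209), which encodes the slowly deactivating subunit that binds CaMKII, varied most between libraries among the 6 genes with more than 100 reads. It had 18910, 21619, 31404 and 21385 normalized reads in WT libraries and 27351, 17658, 23453 and 27789 in cKO libraries. Both the highest and the lowest values were single libraries, WT replicate 3 and cKO replicate 2, and the ratio between them was 1.78. The log2 fold change was 0.049 (SE 0.18, limma adjusted p = 0.969), with a 95% interval of the fold from 0.784 to 1.37. No direction can be read for Grin2b, as quantile normalization gave −0.023, and leaving out WT replicate 3 gave 0.20 (limma adjusted p = 0.655, range over the 15 alternatives 0.655 to 0.996).

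Grin2c (ENSMUSG00000020734), the astrocyte and thalamic subunit gene, had 2018, 1820, 2176 and 1858 normalized reads in WT libraries and 1666, 2062, 1815 and 1681 in cKO libraries. The groups overlapped, with 3 cKO libraries below every WT library and cKO replicate 2 above 3 of the WT libraries. The log2 fold change was −0.13 (SE 0.095, limma adjusted p = 0.716), with a 95% interval of the fold from 0.793 to 1.06.

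Grin2d (ENSMUSG00000002771), the interneuron-associated subunit gene, had 527, 647, 708 and 646 normalized reads in WT libraries and 564, 540, 501 and 638 in cKO libraries. Here WT replicate 1 was the lowest of its group and lay within the cKO range. The log2 fold change was −0.17 (SE 0.12, limma adjusted p = 0.701), with a 95% interval of the fold from 0.737 to 1.07. Kdelr1, which overlaps Grin2d on the opposite strand, had 958 ± 134 normalized reads in WT libraries and 1231 ± 138 in cKO libraries (SD, n = 4, limma adjusted p = 0.510).

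The GluN3 genes encode subunits that lower calcium flow through the channel. Grin3a (ENSMUSG00000039579) had 1439, 1639, 1884 and 1544 normalized reads in WT libraries and 1973, 1202, 1905 and 2059 in cKO libraries. In 3 cKO libraries it was above every WT library, and in cKO replicate 2 below every one of them. The log2 fold change was 0.11 (SE 0.16, limma adjusted p = 0.881), with a 95% interval of the fold from 0.839 to 1.39. Without cKO replicate 2 it was 0.29 (limma unadjusted p = 0.0173, adjusted p = 0.437), and over the 15 alternatives the adjusted p ran from 0.437 to 0.987.

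Grin3b (ENSMUSG00000035745) was near the limit of detection, with 7, 4, 10 and 16 reads in the WT libraries and 6, 4, 8 and 8 in the cKO libraries. Its log2 fold change of −0.26 (SE 0.50, limma adjusted p = 0.919) has a 95% interval of the fold from 0.387 to 1.80. Tmem259, a gene on the opposite strand that overlaps Grin3b, had 2541 ± 143 normalized reads in WT libraries and 2602 ± 107 in cKO libraries (SD, n = 4).

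**Figure D3:**
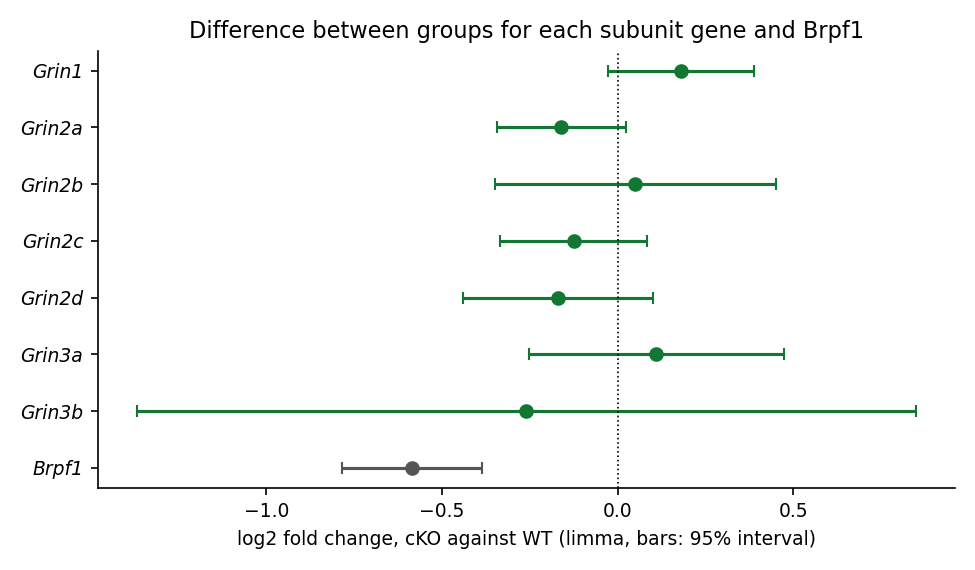
Log2 fold change of cKO against WT (horizontal axis) for the 7 subunit genes and Brpf1, from limma over all genes, with 95% intervals as bars. The intervals of the 7 subunit genes include 0, and that of Brpf1 lies below 0.

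Read together, 0 of the 7 subunit genes passed limma with Benjamini-Hochberg adjustment, against 0.0191% of all genes tested (5 of 26135). At an unadjusted p under 0.05 again 0 of 7 passed, where 8.67% of all genes did. limma-voom on the recovered reads called 0 of 7 as well, against 0.0153% of all genes. No subunit gene had groups without overlap, where 4.92% of all genes had. The log2 fold changes were positive for 3 genes and negative for 4, with a median of −0.13 against −0.018 over all genes tested. For 6 of the 7 genes, all but Grin3b, the 95% interval lay within 1.5-fold in either direction. The FDR of these genes in the authors' deposited table was 0.586 or higher, and that table has 0.657% of its genes at an FDR under 0.05.

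The makeup of the GluN2 pool is often read from the ratio of Grin2a to Grin2b, in which the library's size factor cancels. The ratio of normalized reads was 1.02, 0.857, 0.602 and 0.754 in WT and 0.666, 0.897, 0.636 and 0.583 in cKO. The lowest WT value and the highest cKO value crossed the other group, and the means were 0.808 ± 0.175 and 0.695 ± 0.139 (SD, n = 4), a difference smaller than either spread. The spread of Grin2b was the larger of the pair: its coefficient of variation was 23.7% in WT libraries and 19.5% in cKO libraries, against 7.74% and 8.52% for Grin2a.

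As shares of the 4 GluN2 genes per kb of exon, Grin2a made up 41.9% ± 4.10 in WT and 39.2% ± 2.52 in cKO, and Grin2b 38.2% ± 4.72 and 41.5% ± 5.08 (SD, n = 4). Grin2c made up 16.1% ± 1.05 and 15.7% ± 3.01, and Grin2d 3.91% ± 0.414 and 3.64% ± 0.303. Each of these shares overlapped between groups. Per kb of coding length the Grin2c share was only 5.29% ± 0.450 in WT and 5.09% ± 1.19 in cKO, so the size of the Grin2c share depends on the length used. The highest Grin2c share per kb of exon, 19.6%, was in cKO replicate 2, the library with the lowest Grin2b.

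**Figure D4:**
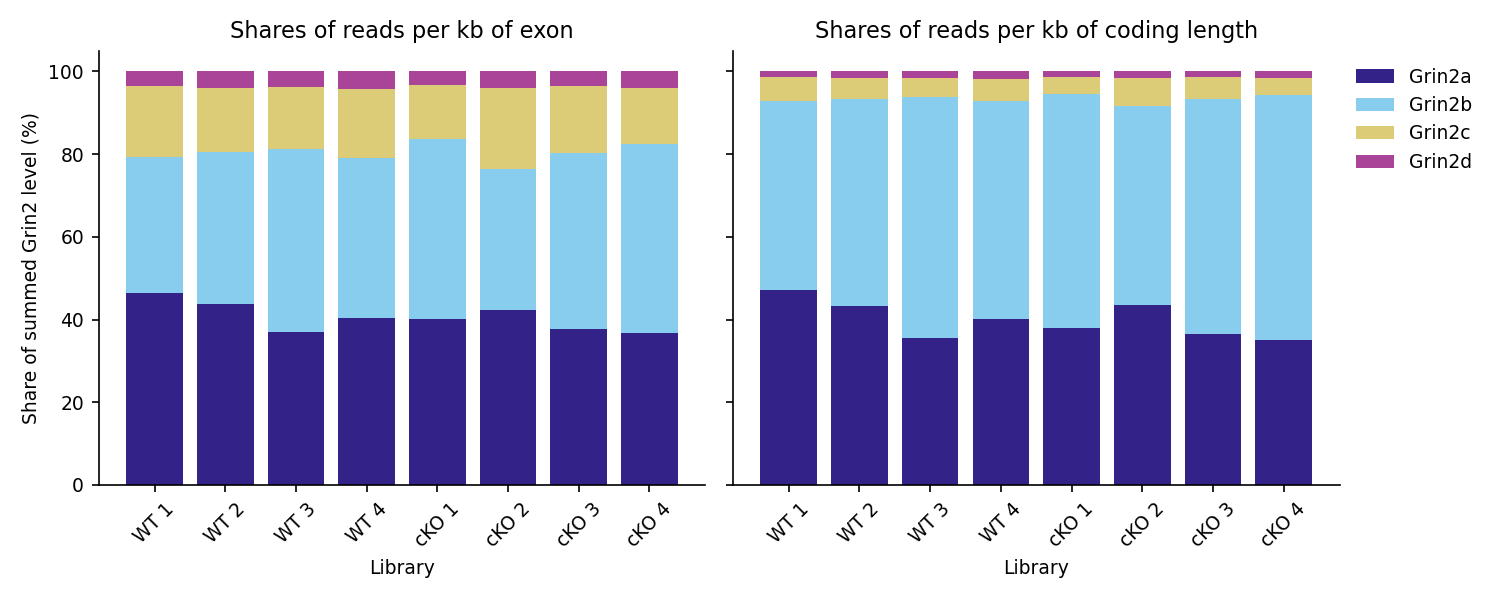
Share (%) of each GluN2 gene in the summed level of the 4 genes in each library, per kb of exon (left) and per kb of coding length (right). Grin2a and Grin2b take most of the pool in every library, and the Grin2c share is smaller on the right.

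The log2 fold changes of Grin1 and Grin2a had opposite signs, so their ratio was also computed, a choice made after their values were seen. The ratio of Grin1 to Grin2a was 0.561, 0.612, 0.737 and 0.712 in WT and 0.682, 0.837, 0.868 and 0.935 in cKO. The groups still overlapped, since cKO replicate 1 lay below WT replicates 3 and 4. Grin1 per kb of exon over the summed GluN2 genes was 0.503 ± 0.0215 in WT libraries and 0.600 ± 0.0668 in cKO libraries (SD, n = 4), and here too cKO replicate 1 (0.506) lay within the WT range of 0.481 to 0.532. These ratios were not tested.

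Across the 8 libraries, the subunit genes did not vary as a block. Pearson r of log2 values was highest for Grin2b with Grin3a (0.89, Spearman rho 0.86), whose lowest library was the same, cKO replicate 2. It was lowest for Grin2c with Grin3a (−0.56, rho −0.74), and Grin1 with Grin2a gave −0.39. Points are 8 libraries of 2 groups, so these values describe the libraries only.

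Among 10978 other genes whose mean log2 value reached 8, those most like each subunit gene over the 8 libraries were found by Pearson r. For Grin1 they were Ube2h, a ubiquitin-conjugating enzyme gene (0.98), Sort1, which encodes the sorting receptor sortilin (0.98), and Cyfip2, a gene of the WAVE actin regulatory complex (0.97), and 254 genes had r above 0.9. For Grin2a they were Crocc (0.98), Gxylt1 (0.95) and Spice1 (0.95), with 24 genes above 0.9. For Grin2b they were Abcg4 (0.97), Ankrd63 (0.97) and Ubr4 (0.97), with 121 genes above 0.9. For Grin3a they were Ripor2 (0.99), Etv5 (0.98) and Itsn1 (0.98), with 117 above 0.9. Grin2c had only 2 genes above 0.9, Lyst and Tsr3 (0.91 each, with Epb41l5 next at 0.90), and Grin2d had 7, led by Mdc1 (0.96), Sidt2 (0.94) and Zbtb34 (0.94). For Grin3b, whose values rest on 4 to 16 reads, the leading genes were Rps6ka3 (0.97), Pde1c (0.93) and Rwdd4a (0.91). These values describe 8 libraries, with no test.

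The receptor's partners were counted in lists beside the subunits, and 0 of 115 tested genes in 8 lists passed limma over all genes. Of all genes tested, 47.3% had a positive log2 fold change, and of the 11842 whose mean log2 value reached 8, 56.3% had one (median 0.025). Postsynaptic scaffolds, which hold the receptor in the density, had 10 positive and 4 negative log2 fold changes of 14 (median 0.071), and 1 had an unadjusted p under 0.05, where 4.07% of all genes had one in that direction. That gene, Dlg4, encodes PSD-95, the scaffold bound by the tails of GluN2 subunits. It had 23161, 21724, 24617 and 22963 normalized reads in WT libraries and 23945, 25419, 26348 and 26513 in cKO libraries (log2 fold change 0.14 with SE 0.065, and adjusted p = 0.574 in limma). Only WT replicate 3 reached into the cKO range. Dlg2 ran from 14576 to 17080 in WT libraries and from 17191 to 19304 in cKO libraries (limma adjusted p = 0.592). Its groups did not overlap, as for 2.57% of all genes in that direction. Shank3, a deeper scaffold, had the lowest unadjusted p among the negative values (log2 fold change −0.23, SE 0.19, adjusted p = 0.753).

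Kinases, phosphatases and other signalling genes downstream of the channel had 22 positive and 6 negative log2 fold changes of 28 (median 0.10), and 2 had an unadjusted p under 0.05, both positive, against 4.07% of all genes in that direction. Ptk2b encodes the calcium-activated kinase PYK2, which activates Src at the receptor. It had 21796, 24989, 28960 and 25147 normalized reads in WT libraries and 28552, 33490, 29664 and 32161 in cKO libraries, with only WT replicate 3 above the lowest cKO value (log2 fold change 0.30 with SE 0.092, and adjusted p = 0.496 in limma). The kinase gene Fyn, whose product phosphorylates GluN2B, had 4515 ± 380 in WT libraries and 5235 ± 385 in cKO libraries (SD, n = 4, log2 fold change 0.21, adjusted p = 0.529). The calcineurin subunit gene Ppp3cb split the cKO group, with 19376 and 19835 normalized reads in cKO replicates 1 and 2 but 10342 and 9534 in replicates 3 and 4, against 17543 to 19631 in WT. Cdk5 ran from 3285 to 3463 in WT libraries and from 3471 to 3897 in cKO libraries (limma adjusted p = 0.663). Its groups did not overlap, as for 2.57% of all genes in that direction.

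Trafficking and anchoring genes had 12 positive and 6 negative values of 18 (median 0.063), and 1 in each direction had an unadjusted p under 0.05, against 4.07% of all genes that were higher and 4.6% that were lower. Nsf, which encodes the ATPase that recycles membrane fusion complexes, had 28294 ± 4282 normalized reads in WT libraries and 34279 ± 2747 in cKO libraries (SD, n = 4), with a log2 fold change of 0.29 (SE 0.11, adjusted p = 0.519 in limma). Akap9, whose product yotiao anchors kinase A to GluN1, had 3873 ± 145 and 3381 ± 264 (log2 fold change −0.20, SE 0.077, adjusted p = 0.525), and its groups did not overlap, as for 2.35% of all genes in that direction.

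Genes that supply the co-agonists glycine and D-serine had 7 positive and 9 negative values of 16 (median −0.037), and 0 had an unadjusted p under 0.05. Srr, the gene of serine racemase, which makes D-serine, had 2991 ± 162 normalized reads in WT libraries and 3049 ± 313 in cKO libraries, and the glycine transporter gene Slc6a9 had 1078 ± 80.1 and 972 ± 210 (SD, n = 4). In this list Gcsh had the lowest unadjusted p among positive values (log2 fold change 0.13, limma adjusted p = 0.646) and Psph among negative ones (−0.15, adjusted p = 0.662). Kynurenine pathway genes, whose products include the receptor ligands kynurenic and quinolinic acid, had 2 positive and 8 negative values of 10 (median −0.32), again with 0 under an unadjusted p of 0.05. Only Tdo2, Kyat1 and Kyat3 of this list had a mean log2 value of at least 5, with log2 fold changes of −0.21, −0.041 and 0.17. The list median therefore rests mostly on genes with few reads. The negative value of lowest p in that list belongs to a gene with a mean log2 value under 5, which is not described. Kyat3 had the lowest p among positive values (log2 fold change 0.17, limma adjusted p = 0.885).

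Glutamate uptake and release genes had 5 positive and 3 negative values of 8 (median 0.034). The neuronal glutamate transporter gene Slc1a1 had 5545, 5527, 6195 and 4939 normalized reads in WT libraries and 6845, 6187, 6313 and 6650 in cKO libraries (log2 fold change 0.23 with SE 0.080, and adjusted p = 0.510 in limma). Of 10 transcription factor genes linked to Grin promoters, 4 had positive and 6 negative values (median −0.052), and 2 of the negative ones had an unadjusted p under 0.05, where 4.6% of all genes had one in that direction. Rest, the repressor of neuronal genes outside neurons, had 414 ± 29.6 normalized reads in WT libraries and 329 ± 59.8 in cKO libraries (SD, n = 4, log2 fold change −0.35, SE 0.15, adjusted p = 0.553). Sp1 ran from 1511 to 1734 in WT libraries and from 1247 to 1502 in cKO libraries (limma adjusted p = 0.574). Its groups did not overlap, as for 2.35% of all genes in that direction. Tbr1 had a log2 fold change of 0.20 (SE 0.28, limma adjusted p = 0.870).

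**Figure D5:**
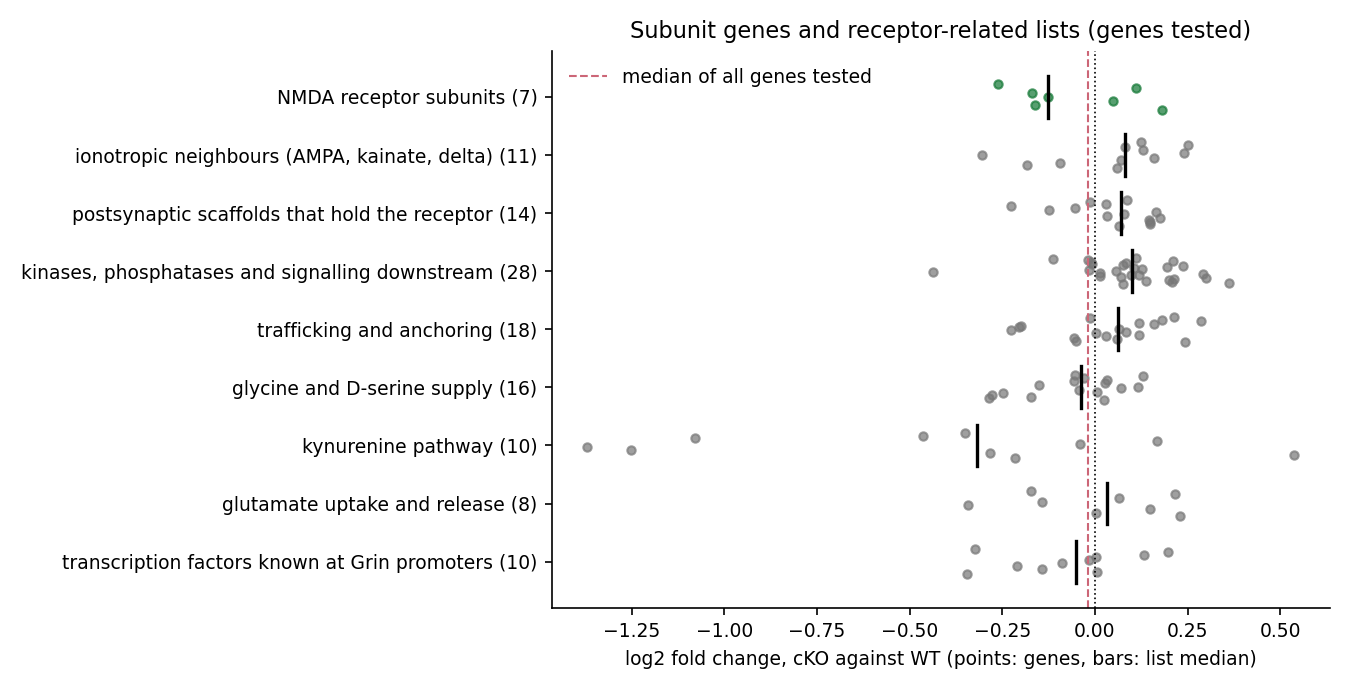
Log2 fold change of cKO against WT (horizontal axis) of each gene (points) in the NMDA receptor list and 8 receptor-related lists, with list medians as black bars and the number of genes tested in brackets. The dashed line is the median of all genes tested, and no gene shown passed limma over all genes.

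Other ionotropic glutamate receptor genes likewise gave no call. AMPA receptor genes had 0 of 4 genes under an unadjusted p of 0.05 and log2 fold changes from −0.18 to 0.070, kainate receptor genes 1 of 5 and −0.30 to 0.24, and the delta receptor genes 0 of 2 and 0.13 to 0.25, where 8.67% of all genes were under that p. The kainate gene was Grik2, with 5731 ± 417 normalized reads in WT libraries and 4658 ± 597 in cKO libraries (SD, n = 4, limma adjusted p = 0.496), and Grid1 had the lowest p among the positive values (0.25, SE 0.14, adjusted p = 0.626). NMDA receptor genes ranged from −0.26 to 0.18, so their fold changes lay within the span of these related families, although a difference between the families was not tested.

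Marker genes of the cells known for each subunit were read beside it. For Grin2c, astrocyte markers summed to 177008 to 232216 normalized reads in WT libraries and 213423 to 225329 in cKO libraries over 9 of 9 genes, and thalamic markers to 5536 to 8007 and 4615 to 5816 over 8 of 8 genes. Of the 9 astrocyte markers, 6 had positive and 3 negative log2 fold changes (median 0.034), whereas that of Grin2c was negative. All 8 thalamic markers had negative log2 fold changes (median −0.24), the same sign as Grin2c. Cerebellar granule cell markers summed to 2753 to 5175 and 2605 to 3462 over 8 genes, of which 3 had positive and 5 negative log2 fold changes (median −0.22). Zic1 belongs to both the thalamic and the cerebellar list, so these sums are not independent. The mean cerebellar sum was 3815 in WT and 2990 in cKO, and the mean of Zic1 alone 1396 and 504. The lower cerebellar sum in cKO therefore rests on Zic1, whose groups overlapped. The mean thalamic sum was 6693 in WT and 5285 in cKO, so much of that difference rests on Zic1 as well. The defining marker Gabra6 was near the limit of detection, and its groups overlapped. It had 0 normalized reads in 3 of the 4 cKO libraries, 8.47 in cKO replicate 1 and 4.65 to 58.3 in WT libraries. The 3 positive log2 fold changes of this list were those of Barhl1 (0.58), Cbln1 (0.55) and Neurod1 (0.18). The part of these cells in the Grin2c values was not tested.

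For Grin2d and Grin3a, 12 interneuron markers summed to 32867 to 42225 normalized reads in WT libraries and 37136 to 46810 in cKO libraries, with 9 positive log2 fold changes (median 0.097). Sst, the peptide gene of the interneurons in which Grin3a is known, had 5277 ± 246 and 6380 ± 514 (SD, n = 4), without overlap between groups (limma adjusted p = 0.496), as for 2.57% of all genes in that direction. Ratios to interneuron markers were added after these values were seen, Gad1 first and 7 more markers after it. They restate the lower values of Grin2d and the higher values of several markers in cKO, and so add no support. Grin2d over Gad1, the gene of the GABA-making enzyme, was 0.0592 ± 0.00341 in WT and 0.0450 ± 0.00409 in cKO. Grin2d over Sst was 0.120 ± 0.00942 and 0.0879 ± 0.00555 (SD, n = 4). Only 3 of the 8 Grin2d ratios, those to Gad1, Sst and Vip, had groups without overlap, although all 8 means were lower in cKO. Grin2d over Gad2, at 0.0989 ± 0.00982 and 0.0878 ± 0.00595, overlapped between groups. Relative to Lhx6, an interneuron transcription factor gene, cKO replicate 2 had the highest Grin2d ratio of all 8 libraries, 2.02 against at most 1.32 in WT. Of the 8 mean Grin3a ratios, 4 were lower in cKO. Neither the ratios nor the part of interneurons in Grin2d and Grin3a was tested.

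For Grin3b, 6 of 8 hindbrain and motor neuron markers were in the table, summing to 14.6 to 99.3 normalized reads in WT libraries and 75.2 to 190 in cKO libraries. Of these 6 markers 4 had positive and 2 negative log2 fold changes (median 1.42), whereas that of Grin3b was negative. At an unadjusted p under 0.05, 3 were higher and 1 lower in cKO, against 4.07% and 4.6% of all genes, and the 3 higher ones had groups without overlap, against 2.57%. The lowest adjusted p of the list was 0.102 in limma. The lower one was Chat, the gene of acetylcholine synthesis in motor neurons, which had 0 normalized reads in 1 WT library and 3 cKO libraries. The part of these cells in the Grin3b values was not tested. Markers of other cells were read beside all 7 genes. Oligodendrocyte markers summed to 121031 to 177607 in WT libraries and 98431 to 152584 in cKO libraries, with negative log2 fold changes for 10 of 10 genes (median −0.27), the same sign as Grin2a, Grin2c, Grin2d and Grin3b. Choroid plexus markers ranged from 12067 to 234943 in WT libraries and from 18928 to 69630 in cKO libraries. Both the lowest and the highest of these sums were in WT libraries, replicates 1 and 2. Log2 fold changes of these markers were negative for 8 of 8 genes (median −0.76), again the sign of those 4 subunit genes. Microglia markers went the other way, with 6 positive and 1 negative log2 fold changes of 7 (median 0.13), the sign of Grin1 and Grin3a. No direction could be read for Grin2b. The subunit genes had both signs, so any list of mainly 1 sign matches some of them, and such matches add no support. Signs were mixed for oligodendrocyte precursor markers (3 positive, 2 negative), endothelial markers (2 positive, 5 negative) and cortical neuron markers (3 positive, 5 negative). They were also mixed for markers of CA1 pyramidal cells (2 positive, 5 negative), dentate granule cells (2 positive, 5 negative) and CA3 and CA2 (3 positive, 3 negative). The part of these cells in the subunit values was not tested.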

How the data were processed

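RNA-seq of hippocampal CA1 tissue was made with Trizol extraction and a stranded mRNA kit, per the labels' protocols. STAR, StringTie and DESeq2, with build mm9, are named without versions or roles in the submitters' processing notes. The sources used here give neither the annotation nor the strand setting. One table of 34094 genes was deposited. Its log2 values, 1 for each library, are the authors' and equal log2(reads / size factor + 1), since 100% of values gave whole reads (tolerance 0.001 reads). It also holds the authors' deposited log2 fold change, p-value and FDR. Its 2 columns of group means were not used.

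The 4 cKO and 4 WT libraries were compared with limma 3.58.1 in R 4.3.3 with a robust mean-variance trend. Input was the authors' deposited log2 scale (pseudocount 1), and genes entered where 4 or more libraries reached a normalized value of 1. All 7 subunit genes passed this filter. Adjusted p is Benjamini-Hochberg over all 26135 genes tested, with a threshold of 0.05, and limma p-values are two-sided. limma-voom on the recovered reads, other scaling, filters, pseudocount, array weights, a replicate block and leaving out each library were alternatives. The procedure was tested on simulated data.

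Members and lists were chosen with earlier results of these data known. Named genes are the 7 members, Brpf1 and, per receptor-related list, each gene past the threshold and that of lowest p in each direction where its mean log2 value reached 5. Of these, 1 gene is not reported here. For each member the 3 most similar genes are named. Other genes named were chosen after their values were seen. Lengths and overlaps came from GENCODE M21 (GRCm38), which is not the authors' build, so gene coordinates are not printed. Promoter sequences are RefSeq's. Figures used matplotlib 3.10.9.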

Additional observations from a re-analysis of the deposited data

How the results depend on the processing

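No subunit gene and no gene of the receptor-related lists passed limma under any of the 15 alternatives, where the count over all genes ranged from 2 to 8. That count was 5 with all libraries, 8 with array weights, 2 with the replicate block and 4 to 7 when 1 library was left out. The cause of these shifts was not tested. Grin2b was the 1 subunit gene whose log2 fold change reversed, to −0.023 with quantile normalization and to −0.043 without WT replicate 1, −0.020 without cKO replicate 1 and −0.027 without cKO replicate 4 (0.20 at the highest, without WT replicate 3), the cause of which was not tested. Grin1 kept a positive value (0.12 to 0.26), as did Grin3a (0.031 to 0.29), and Grin2a (−0.23 to −0.12), Grin2c (−0.19 to −0.076), Grin2d (−0.25 to −0.11) and Grin3b (−0.53 to −0.017) kept a negative one. Grin3b did not pass the filter of 10 normalized reads in 4 libraries, so that setting gives it no value. Brpf1 stayed between −0.63 and −0.53, with adjusted p from 0.0619 to 0.484. The mean Grin2a to Grin2b ratio of cKO minus that of WT stayed between −0.181 and −0.0425. The difference in Grin2c share turned from −0.423 to 0.439 percentage points without cKO replicate 1 and to 0.255 without cKO replicate 4. Same-numbered libraries showed no shared deviation over all genes tested (r from −0.040 to 0.029 over 4 pairs). That does not settle whether the numbers mark pairs of animals, since paired animals need not deviate together. The replicate block (log2 fold change 0.18 for Grin1, limma unadjusted p = 0.0843) changed no call of a subunit gene. Grin3b rests on 4 to 16 reads a library.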
